A study of Mus musculus with 145 samples.

Results

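Neural 3 is 1 of the cell clusters that the authors named in the modified STRT-seq data, and its members were taken as the cells that carry this name in the deposited cell annotation. It held 61 of the 4464 annotated cells, all of them among the 4339 cells of the original condition, in which spermatogonial stem cells (SSCs) were cultured towards pluripotency before the chemical screen. The SSC line came from male pups in the first postnatal week, bred from C57BL/6 females that carried *Oct4*-EGFP or EGFP and DBA/2 males, so every library of the series that is used here is male and of this F1 background. The labels give no treatment to these libraries, and the cells grew from day 0 to day 27 in the SSC medium, StemPro-34 with EGF, bFGF, GDNF and ESGRO, on fibronectin and inactivated embryonic fibroblasts as feeders. Modified STRT-seq is a plate-based method that tags each cDNA molecule with a unique molecular identifier (UMI), so that copies of 1 molecule are counted once.

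SSCs are the unipotent stem cells of the testis, and in the study some of them became pluripotent while others were placed in failed branches, the neural branch among them. Its markers included *Nr2f1*, a nuclear receptor of developing neurons and mesenchyme, *Foxp2*, a forkhead factor of brain and lung, and *Msx1*, a homeobox gene of neural crest and limb mesenchyme. Many such regulators act in several tissues, and a neural cell is usually recognised by a wider set: *Sox1*, *Sox2* and *Pax6* in progenitors, *Dcx*, *Map2* and *Tubb3* in neurons, *Sox10* and *Foxd3* in neural crest. Somites, the blocks of paraxial mesoderm beside the neural tube, are recognised by other transcription factors, such as *Meox1*, *Meox2* and *Tcf15*, and their ventral part, the sclerotome, by *Pax1* and *Pax9* before it forms cartilage.

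All 61 cells came from a pair of libraries of day 27. Replicate 1 held 36 Neural 3 cells among 93 cells (38.7%, exact 95% interval 28.8 to 49.4) and replicate 2 held 25 among 96 (26%, 17.6 to 36). None of the 96, 96 and 92 cells of the other day 27 libraries belonged to the cluster, which allows shares of up to 3.13% and 3.26%, and none did in the 41 libraries of the earlier days. These intervals and limits cover counting error only. Both libraries share a collection label and a date label that the other day 27 libraries do not carry, so the cluster, the collection and the date cannot be told apart.

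Of the companions of the cluster, Neural 2 was found in these libraries and, as 1 cell, on day 14, whereas SSC1 and RPG4 occurred in other libraries too. Replicate 1 held 51 Neural 2, 3 RPG4 and 3 SSC1 cells beside Neural 3, and replicate 2 held 65, 2 and 4, whereas Neural 1, the main neural cluster of the other day 27 libraries, was not found in either. Colonies were picked by hand, so the shares are those of the cells collected.

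**Figure D1:**
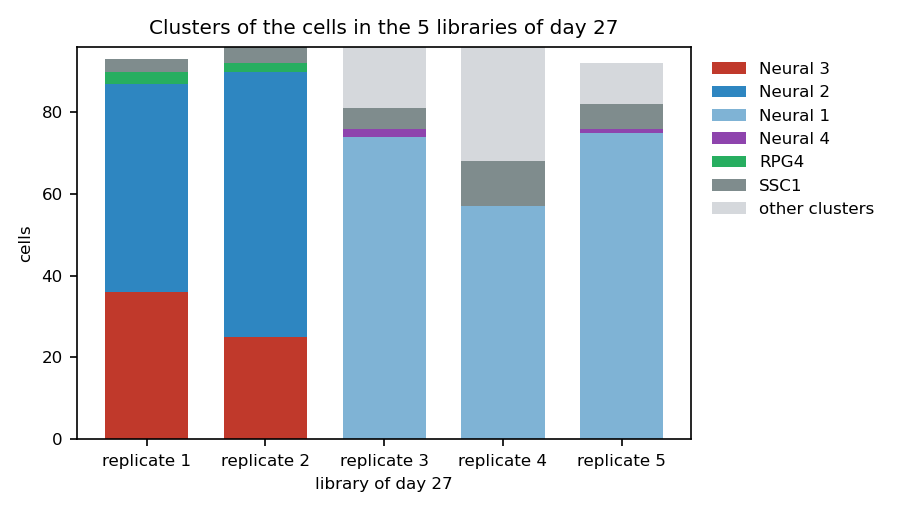
Cells per cluster (vertical axis, number of cells) in each of the 5 libraries of day 27 (horizontal axis), as stacked bars. Neural 3 takes 36 and 25 cells in replicates 1 and 2, where Neural 2 takes 51 and 65, and is missing from replicates 3 to 5, which hold Neural 1 instead.

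By day, the mean share was 12.95% ± 18.29 (SD, n = 5 libraries) on day 27 and 0 in each of the 7 libraries of day 23, and without replicate 1 the day 27 mean was 6.51%. The difference of 12.95 percentage points had an exact two-sided permutation p = 0.303. Among neural cells only, the mean share on day 27 was 13.83% ± 19.54 (SD, n = 5), against 0 in the 5 libraries of day 23 with a neural cell (exact permutation p = 0.444). Only 2 of the libraries hold the cluster, both of day 27, so each p is the smallest that these shares allow and the test could not have reached 0.05. The share varied more among the libraries of day 27 than the mean differed from day 23, and all 12 libraries belonged to batch B1.

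The sums of the Neural 3 cells held 10876109 UMIs in replicate 1 and 4387632 in replicate 2. The cells had a median of 305225 and 167493 UMIs and of 8475 and 7647 genes, and the Neural 2 cells of the same libraries had 278631 and 212539 UMIs and 8808 and 8428 genes. Mitochondrial UMIs made up a median of 0.557% and 0.776% of a Neural 3 cell and 0.762% and 1.018% of a Neural 2 cell. Between the Neural 3 sums, 12.9% of 8999 genes at 10 CPM or more (UMI counts scaled to a common total per sum) differed by over 2-fold, against 6.19% of 9654 genes between the Neural 2 sums. Nothing in the labels says that the libraries were separate cultures, so the spread between them may be technical. The 96 cell barcodes of a plate recur in every library by design, and cells were picked singly, so no doublet caller was run.

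Expression is given as CPM of these sums, with replicates 1 and 2 of day 27 in this order. Neural 3 (n = 2 libraries) was set against SSC1 to SSC4 together (n = 36 libraries), against Neural 1 (n = 8) and against Neural 2 of the same libraries (n = 2), always in sums of at least 5 cells. A gene passed at a Benjamini-Hochberg adjusted p below 0.01 in edgeR's quasi-likelihood fit and a natural-log fold change of at least 1 in size. The authors drew the clusters on these same transcriptomes, so a difference between clusters is a description and no test of it is given; fold changes are log2 values ± SE. Levels are not compared between genes.

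Against SSCs, 1678 of 18807 genes passed as higher in Neural 3 (8.92%) and 1571 as lower (8.35%), and the median gene lay at -0.35 on the log2 scale. For 14.4% of the tested genes, passing or not, the Neural 3 libraries did not overlap the 36 SSC libraries. Only 2 libraries hold the cluster, and without replicate 1 the counts were 1040 higher and 695 lower, without replicate 2 they were 1295 and 981. Within day 27 alone, 735 passed as higher and 595 as lower.

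The marker genes of the neural branch divided. *Nr2f1* (chr13:78188973-78199757 on GRCm38, minus strand) stood at 153 CPM in replicate 1 and 139 CPM in replicate 2, against 0 to 11.3 CPM with a median of 0.327 over the 36 SSC libraries. *Foxp2* stood at 57.8 CPM in replicate 1 and 74.5 CPM in replicate 2, against 0 to 8.51 CPM with a median of 0.555 in SSCs. For both genes the Neural 3 libraries lay above every SSC library, with log2 fold changes of 7.27 ± 0.68 and 6.14 ± 0.69. *Msx1* did not pass, with 5.79 and 0.228 CPM (63 and 1 UMIs) against 0 to 27.9 CPM with a median of 5.17 in SSCs. Its UMIs came from 7 of the 61 cells, and the pooled Neural 4 cells, by contrast, held 153 CPM.

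The wider neural lists did not follow *Nr2f1*. Of 18 tested regulators of neural progenitors, 2 passed as higher and 2 as lower (median log2 fold change -0.90); over all genes 8.92% were higher. The higher ones were *Otx2*, a head homeobox gene, at 8.64 and 9.34 CPM, and *Fabp7*, a fatty acid binding protein of radial glia, at 0.828 and 3.19 CPM with UMIs in 2 cells. Of the progenitor factors, *Sox1* stood at 0.184 and 0 CPM, *Pax6* at 0 and 0.228 CPM and *Sox2* at 3.31 and 1.59 CPM, where Neural 2 held 39 and 38.5 CPM of *Sox2* and SSCs 0 to 90 CPM with a median of 16.8. *Hes5*, a Notch target, was lower than in SSCs (-2.86 ± 0.61).

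Neuronal genes were summed to 335 and 395 CPM in Neural 3, below the 777 to 1705 CPM of SSCs, and 6 of 21 had at most 3 UMIs over both libraries. Of 19 tested genes of the neuronal cytoskeleton and synapse, 2 passed as higher and 3 as lower (median -1.91), shares not far from the 8.92% and 8.35% of all genes. *Gap43*, a protein of growth cones, was among the higher at 94.9 and 84.8 CPM against 0 to 4.11 CPM with a median of 0.207 in SSCs (6.97 ± 0.74), and so was *Ncam1*, an adhesion molecule of neurons and mesenchyme, at 62.3 and 36.2 CPM (3.57 ± 0.51). *Dcx*, *Cntn1* and *Slc17a6* had no UMI in either library, *Map2* had 2 and 0 UMIs, and *Tubb3* stood at 12.4 and 3.42 CPM. *Ina*, an intermediate filament of neurons, was at 1.66 and 2.05 CPM in Neural 3 and 9.52 to 80 CPM with a median of 43.4 in SSCs (-4.40 ± 0.59). Glial markers were summed to 6.25 and 15.95 CPM (SSCs 0 to 35.1), and none of 6 tested passed as higher.

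The neural crest list split by gene. Higher were *Snai2*, a repressor of epithelial genes, at 35.5 and 43.8 CPM (7.32 ± 0.84), *Ngfr*, the low-affinity neurotrophin receptor, at 71.7 and 51 CPM (5.67 ± 0.55), and *Sox9*, *Twist1* and *Pax3*, which mesoderm expresses too. *Sox10* had 0 and 2 UMIs, *Foxd3* 0 and 2 UMIs and *Tfap2a* 1 and 0 UMIs, and *Erbb3*, *Msx2* and *Tfap2a* passed as lower. In all, 5 of 16 tested genes passed as higher and 3 as lower, with a median of 0.17, beside 8.92% higher and 8.35% lower over all genes. Their sum was 658 and 655 CPM in Neural 3, above the 92.5 to 372 CPM of SSCs and the 239 and 195 CPM of Neural 2. The progenitor and neuronal lists passed in shares not far from those of all genes, with *Otx2*, *Fabp7*, *Gap43* and *Ncam1* as their higher genes. No glial marker passed as higher. These lists thus show no broad neural rise over SSCs, and Neural 3 is used here only as the name of the authors' cluster.

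**Figure D2:**
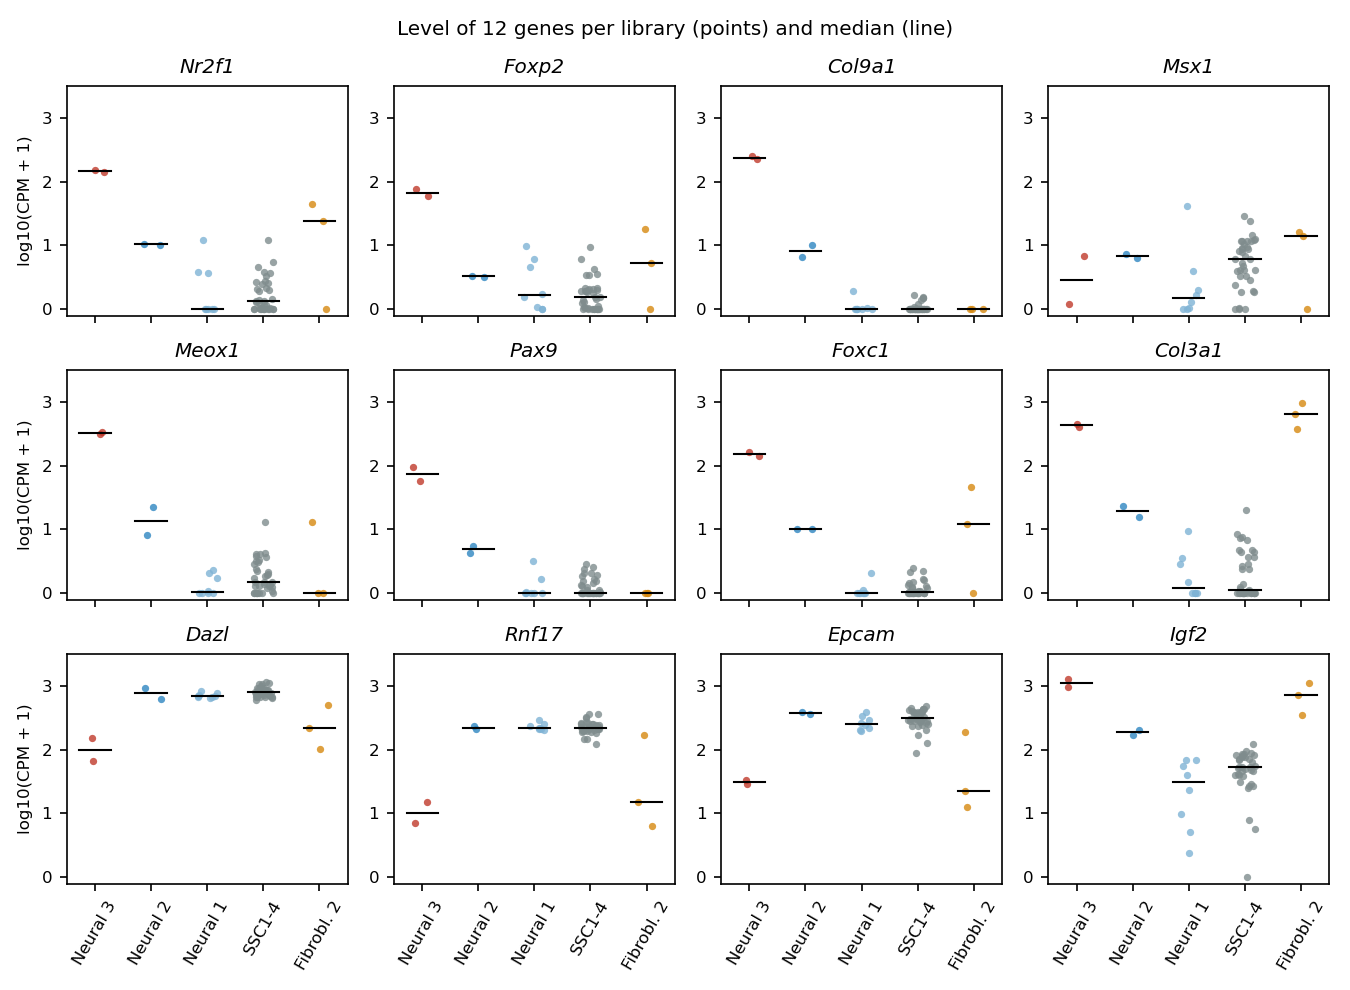
Level of 12 genes on the scale log10(CPM + 1) (vertical axis) in Neural 3 (2 libraries), Neural 2 (2), Neural 1 (8), SSC1 to SSC4 (36) and Fibroblast 2 (3). Each point is a library and each line the median. *Nr2f1*, *Foxp2*, *Col9a1*, *Meox1*, *Pax9* and *Foxc1* are highest in Neural 3, *Msx1* is not, and *Dazl*, *Rnf17* and *Epcam* are below the germ cell clusters.

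The genes that led the cluster by fold over SSCs included the somite regulator *Meox2* and the matrix genes *Col9a1* and *Vcan*. Chosen by the largest log2 fold change among passing genes without overlap at a mean of 10 CPM or more, they were *Tmem119*, *Meox2*, *Col9a1*, *Hoxd3*, *Pcdhb22*, *Pknox2*, *Cd36*, *Foxd1*, *Scara3*, *Fam181b*, *Vcan* and *Hoxd4*. *Tmem119*, a membrane protein of osteoblasts and microglia, stood at 259.7 CPM in replicate 1 and 206 CPM in replicate 2, against 0 to 0.712 CPM with a median of 0 in SSCs (11.52 ± 0.55). *Meox2*, a homeobox gene of somites and limb muscle, stood at 82.3 and 80.9 CPM, against 0 to 0.319 CPM with a median of 0 (11.43 ± 0.57). *Col9a1*, a collagen chain of cartilage, stood at 222 and 252 CPM, against 0 to 0.644 CPM with a median of 0 (11.41 ± 0.56). That no SSC library overlapped Neural 3 follows from the choice. Since the median SSC library had none of their UMIs, these folds rest on few UMIs in SSCs.

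Among the other leading genes, *Vcan*, a large proteoglycan of embryonic matrix, stood at 315 CPM in replicate 1 and 324 CPM in replicate 2, against 0 to 3.94 CPM with a median of 0.044 in SSCs (9.57 ± 0.66). *Foxd1*, a forkhead factor of kidney stroma and other mesenchyme, stood at 194 and 242 CPM, against 0 to 1.64 CPM with a median of 0 (9.72 ± 0.63). *Pknox2*, a TALE homeobox gene, stood at 63 and 59.3 CPM, against 0 to 0.411 CPM with a median of 0 (9.82 ± 0.61). *Cd36*, a fatty acid receptor, and *Scara3*, a scavenger receptor, stood at 36.5 and 15.7 CPM and at 38.8 and 25.8 CPM, and *Pcdhb22*, a protocadherin, at 15.1 and 5.93 CPM.

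Regulators of somites and sclerotome were collected after these values had been seen, so their counts describe the cluster and are no independent evidence. Of 30 tested members, 21 passed as higher than in SSCs, 1 as lower (median log2 fold change 4.75), beside 8.92% higher over all genes. Their summed level was 2848 and 2723 CPM in Neural 3 and 91.1 to 335 CPM in the 36 SSC libraries, so the groups did not overlap, and Neural 2 of the same libraries held 334 and 256 CPM. Of the fibroblast clusters of the series, Fibroblast 1 held 152 to 224 CPM over 4 libraries and Fibroblast 2 held 491 to 1092 CPM over 3.

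*Meox1*, a homeobox gene of the whole somite, stood at 340.2 CPM in replicate 1 and 311 CPM in replicate 2, against 0 to 11.9 CPM with a median of 0.511 in SSCs (8.12 ± 0.53), and had UMIs in 61 of 61 cells. *Pax9*, a paired box gene of sclerotome, stood at 56.2 and 95.5 CPM, against 0 to 1.92 CPM with a median of 0 (7.90 ± 0.72). Its partner *Pax1* stood at 27.9 and 15 CPM, against 0 to 5.88 CPM with a median of 0 (5.52 ± 1.07). Each lay above all SSC libraries, and none of the 3 exceeded 11.8 CPM in a Fibroblast 2 library, where *Pax9* had no UMI. *Tbx18* and *Uncx*, which mark the anterior and the posterior part of a somite, were both higher. *Tbx18* stood at 23.4 and 43.5 CPM (7.78 ± 0.87) and *Uncx* at 50.2 and 28.5 CPM (4.72 ± 0.75). *Foxc1* and *Foxc2*, forkhead factors of paraxial mesoderm, stood at 139 and 162 CPM (9.44 ± 0.60) and at 101 and 101 CPM (1.97 ± 0.44).

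Factors of broader mesenchyme moved the same way. *Twist2*, a helix-loop-helix factor of dermis and bone, stood at 152 and 153 CPM, against 0 to 24.9 CPM with a median of 0.528 in SSCs (6.89 ± 0.84). *Prrx1*, a homeobox gene of limb and facial mesenchyme, stood at 65.8 and 41.2 CPM (6.20 ± 0.71) and *Ebf1* at 226 and 234 CPM (6.16 ± 0.37). The TALE homeobox genes *Meis1* and *Meis2*, cofactors of Hox proteins, stood at 234 and 138 CPM and 288 and 283 CPM, with log2 fold changes of 6.80 ± 0.49 and 7.0 ± 0.47. *Sox9*, the cartilage regulator, stood at 226 and 309 CPM, against 0 to 38.1 CPM with a median of 7.9 (5.01 ± 0.53).

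Other members of the same list were not higher. *Mesp2*, a segmentation gene of the presomitic mesoderm, was lower, at 0.919 and 0.684 CPM against 0 to 51 CPM with a median of 11.2 in SSCs (-3.72 ± 0.96). *Tbx6*, a factor of presomitic mesoderm, stood at 2.21 and 1.14 CPM and *Tcf15*, a factor of the somite epithelium, at 38.1 and 34.6 CPM, where SSCs held 8.3 to 168 CPM with a median of 48, so *Tcf15* overlapped. *Myf5* and *Myod1*, the muscle determination genes, had no UMI, and *Pax7*, a gene of muscle precursors, had 62 and 0 UMIs from 3 cells. *Pax3*, of the dermomyotome, passed at 3.95 and 16.6 CPM with UMIs in 7 cells.

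Genes of connective tissue matrix, a list also drawn after the values were seen, passed as higher in 19 of 25 cases and as lower in 1, with a median of 3.70, beside 8.92% higher and 8.35% lower over all genes. *Col2a1*, the main collagen of cartilage, stood at 214 CPM in replicate 1 and 213 CPM in replicate 2, against 0 to 29.4 CPM with a median of 8.23 in SSCs (4.68 ± 0.40). *Col3a1*, a collagen of loose connective tissue, stood at 403 and 448 CPM, against 0 to 19.2 CPM with a median of 0.125 (7.98 ± 0.82). *Col1a1*, the collagen of bone and skin, stood at 305 and 279 CPM, against 2.37 to 62.1 CPM with a median of 32.1 (3.31 ± 0.28). Each lay outside the range of SSCs. The summed level of the list was 3237 and 3204 CPM in Neural 3, below the 5667 to 12510 CPM of Fibroblast 2. *Acan*, the aggregating proteoglycan of mature cartilage, did not pass, at 1.93 and 0.228 CPM, and *Matn4*, a matrilin, was the lower one at 2.02 and 5.24 CPM (-2.86 ± 0.53).

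On the cell surface, *Epcam*, an epithelial adhesion molecule that SSCs carry, stood at 27.4 and 32.8 CPM and was lower than in SSCs, which held 88.9 to 479.5 CPM with a median of 308 (-3.16 ± 0.38). *Cdh11*, a mesenchymal cadherin, stood at 239.7 and 229 CPM, against 0 to 3.2 CPM with a median of 0.123 (8.94 ± 0.58), and *Cdh2* at 65 and 69.7 CPM (4.17 ± 0.41). *Pdgfra* and *Pdgfrb*, receptors for platelet-derived growth factor, stood at 109 and 82.3 CPM (3.28 ± 0.42) and 107 and 71.3 CPM (6.67 ± 0.76). *Cxcl12*, a chemokine of stroma, stood at 323 and 369 CPM (6.93 ± 0.51) and *Gpc3*, a proteoglycan of growth control, at 495 and 541 CPM (5.90 ± 0.24). Of 17 such genes, 12 passed as higher and 1 as lower, against the same shares over all genes. Their summed level was 2866 and 3056 CPM in Neural 3, within the 1487 to 3846 CPM of Fibroblast 2.

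Fibroblasts, feeder cells among them, express part of these genes, so the list of fibroblast and feeder markers was read beside them. Of 21 members, 16 passed as higher and none as lower (median 3.44), where 8.92% of all genes were higher. They were summed to 1934 and 1767 CPM in Neural 3, 57.7 to 288 CPM in SSCs, 459 to 784 CPM in Fibroblast 1 and 4933 to 9932 CPM in Fibroblast 2. *Dcn*, a small proteoglycan of fibroblasts, stood at 30.2 and 33.3 CPM in Neural 3 and 578 to 1033 CPM in Fibroblast 2. *Postn* stood at 1.56 and 0.228 CPM and 129 to 319.5 CPM, and *Col12a1* at 3.22 and 4.1 CPM and 50.5 to 176 CPM. *Col3a1*, of the same list, overlapped, at 403 and 448 CPM in Neural 3 and 375.5 to 968 CPM in Fibroblast 2. No list member had 0 UMIs in Neural 3. *Meox1* stood at 0 to 11.8 CPM in Fibroblast 2, *Foxd1* at 0 to 0.269 CPM and *Col9a1* had no UMI there. The part of feeder RNA in the matrix genes of Neural 3 was not tested. Of 16 markers of the testis soma, 6 had no UMI in Neural 3, among them *Cyp17a1*, *Insl3* and *Adgre1*, and *Sox9* alone passed as higher, while *Wt1*, of Sertoli cells, and *Cd68*, of macrophages, passed as lower at 2.3 and 0.456 CPM and 2.12 and 2.05 CPM.

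Hox genes, which give cells their position along the body, were read by paralog group in a list composed after the values were known. For groups 1 to 5, 6 of 13 tested genes passed as higher and none as lower, beside 8.92% and 8.35% over all genes, and the summed level was 393 and 284 CPM in Neural 3 against 23.1 to 178 CPM in SSCs. For groups 6 to 9, 2 of 12 passed as higher and 3 as lower, and the summed level was 78.8 and 59.3 CPM against 60.03 to 361 CPM in SSCs, so replicate 2 lay just below that range. For groups 10 to 13, none of 8 passed as higher and 1 as lower, and 7 of the 12 genes had no UMI. The summed level of these last groups was 5.52 and 15.3 CPM, below 18.2 to 138 CPM in SSCs.

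*Hoxa3* stood at 77.4 and 57.7 CPM, against 0 to 6.31 CPM with a median of 1.75 in SSCs (5.05 ± 0.51), and *Hoxa5* at 55.2 and 44.4 CPM, against 0 to 5.51 CPM with a median of 0.0407 (6.25 ± 0.87). *Hoxd3* stood at 24.1 and 25.5 CPM, against 0 to 0.16 CPM with a median of 0 (10.86 ± 0.61), and *Hoxd4* at 29.2 and 3.88 CPM (9.52 ± 0.81). The annotated *Hoxd3* (chr2:74711927-74748442) and *Hoxd4* (chr2:74711929-74729160, GRCm38) overlap on the plus strand, so their reads may be split between them. The lower genes were all of the HoxB cluster. *Hoxb7* stood at 5.24 and 13.2 CPM, against 25.4 to 199 CPM with a median of 142 (-3.68 ± 0.40), and *Hoxb13* at 4.96 and 14.4 CPM, against 15.4 to 138 CPM with a median of 59.2 (-2.50 ± 0.46).

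Imprinted genes are expressed from the paternal or the maternal copy, and germ cells carry other imprints than somatic cells. Both lists were drawn up after the values were seen. Of 22 paternally expressed genes, 16 passed as higher than in SSCs and none as lower, beside 8.92% and 8.35% over all genes. Their median log2 fold change was 3.63. *Igf2*, a fetal growth factor (chr7:142650766-142666816, GRCm38), stood at 971 CPM in replicate 1 and 1292 CPM in replicate 2, against 0 to 119.5 CPM with a median of 52.5 in SSCs (4.58 ± 0.31). Fibroblast 2 held 352 to 1092 CPM of *Igf2*, which overlaps Neural 3. *Mest* stood at 436 and 545 CPM, against 0 to 42.7 CPM with a median of 12.4 (5.41 ± 0.36). *Peg3*, a zinc finger gene, stood at 673 and 694 CPM, against 1.14 to 55.1 CPM with a median of 14.4 (5.68 ± 0.24). None of the 36 SSC libraries reached the Neural 3 libraries for these 3 genes, beside no overlap for 14.4% of all tested genes, and Neural 2 stood lower than Neural 3 at 202 and 170.5 CPM, 42.2 and 28.1 CPM and 96.5 and 62.8 CPM, within the SSC range for *Mest* and above it for *Igf2* and *Peg3*.

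Of 14 maternally expressed genes, 2 passed as higher and 2 as lower (median -1.49), counts close to the 8.92% and 8.35% of all genes. *H19* (chr7:142575529-142578143), the maternally expressed neighbour of *Igf2*, stood at 5.52 and 19.4 CPM in Neural 3, 121 and 104 CPM in Neural 2, 2.31 to 97.3 CPM with a median of 47 in SSCs and 457 to 953 CPM in Fibroblast 2. *Meg3*, the maternally expressed neighbour of *Dlk1*, had 1 and 1 UMIs in Neural 3, where *Dlk1* stood at 278 and 311 CPM, and Fibroblast 2 held 93 to 476 CPM of *Meg3*. *Cdkn1c*, a growth inhibitor, stood at 4.23 and 12.3 CPM in Neural 3 and 61.3 and 83.2 CPM in Neural 2. *H19*, *Meg3*, *Cdkn1c* and *Phlda2* passed as lower than in Neural 2, and *Meg3* and *Phlda2* as lower than in SSCs. Higher than in SSCs were *Mirg*, a transcript of the *Meg3* region, at 54.4 and 29.2 CPM (4.75 ± 0.60), and *Ube3a*, a ubiquitin ligase imprinted in neurons, at 201 and 184 CPM (1.77 ± 0.26).

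The paternal antisense RNA *Airn* (chr17:12741311-12860136, plus strand) stood at 58 CPM in replicate 1 and 59.5 CPM in replicate 2, against 0 to 2.99 CPM with a median of 0.241 in SSCs (6.72 ± 0.64), and *Igf2r* (chr17:12682406-12769664, minus strand), which it overlaps, stood at 13.8 and 15.5 CPM, against 3.28 to 74.7 CPM with a median of 39.4. *Kcnq1ot1*, the antisense RNA within *Kcnq1*, stood at 358 and 497 CPM (2.23 ± 0.26), and *Kcnq1* had no UMI. The strand setting of the counting is not given in the sources used here, so reads of a gene and its antisense partner cannot be told apart. Allelic expression was not measured, and a higher level of a paternally expressed gene does not give the number of active copies.

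**Figure D3:**
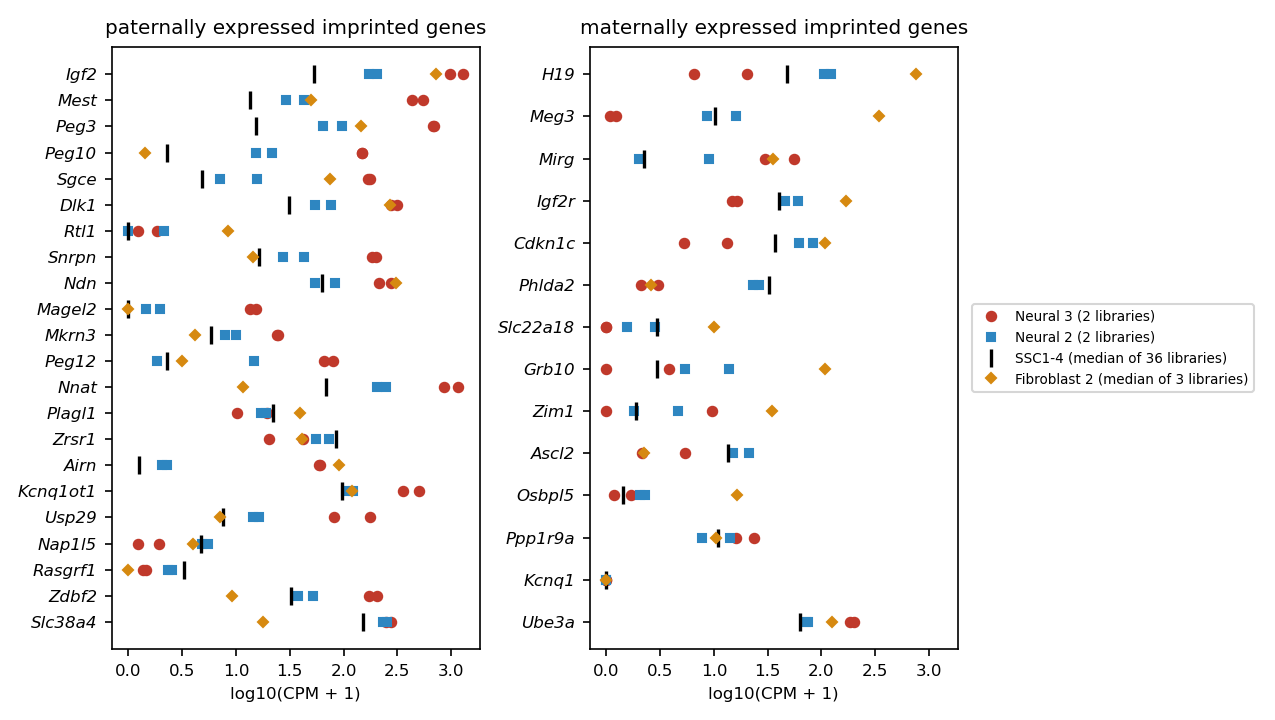
Levels of 22 paternally and 14 maternally expressed imprinted genes on the scale log10(CPM + 1) (horizontal axis), with both libraries of Neural 3 and of Neural 2 as points and the medians of SSC1 to SSC4 (36 libraries) and Fibroblast 2 (3 libraries). By the points and medians shown, *Igf2*, *Mest*, *Peg3* and *Nnat* are highest in Neural 3, whereas *H19*, *Meg3*, *Igf2r* and *Cdkn1c* are lowest there among the 4 classes.

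The germ cell programme was low throughout. Of 20 germ cell identity genes, 19 passed as lower than in SSCs and none as higher (median -3.32, beside 8.35% lower over all genes). *Dazl*, an RNA-binding protein of germ cells, stood at 64.3 CPM in replicate 1 and 149.7 CPM in replicate 2, against 607 to 1136 CPM with a median of 789 in SSCs (-2.70 ± 0.29). *Rnf17*, a Tudor protein of germ granules, stood at 5.98 and 14.1 CPM, against 122 to 365 CPM with a median of 217 (-4.32 ± 0.38), and *Dmrt1*, a sex determination factor, at 17.1 and 53.1 CPM, against 81.4 to 398 CPM with a median of 283 (-2.73 ± 0.42). Replicate 2 held more of all 3 than replicate 1, and both were below every SSC library. *Pnldc1*, a nuclease of piRNA trimming, stood at 2.76 and 2.51 CPM, against 23.7 to 199 CPM with a median of 106 (-5.18 ± 0.45), and *Sycp3*, of the synaptonemal complex, at 1.38 and 2.05 CPM, against 2.37 to 107 CPM with a median of 55.2 (-4.93 ± 0.72); both were among the 12 genes lower by the largest fold. The other 10 were *Gm6871*, *Gm15559*, *Rhox7b*, *Rasl10a*, *Gm26678*, *Npffr1*, *Ncmap*, *Clcf1*, *Prr23a3* and *Cfap53*, each under 2 CPM in both Neural 3 libraries.

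SSC genes and meiotic genes followed. Of 25 genes of undifferentiated spermatogonia, 10 passed as lower and none as higher (median -2.02), where 8.35% of all genes were lower. *Gfra1*, the GDNF receptor of SSCs, stood at 1.01 and 0.912 CPM, against 0 to 57.1 CPM with a median of 28.1 in SSCs (-4.52 ± 0.94), *Ret*, its signalling partner, at 12.8 and 15.5 CPM (-2.57 ± 0.60), and *Zbtb16*, a repressor of SSC differentiation, at 9.1 and 23.9 CPM (-2.56 ± 0.38). *Stra8*, a retinoic acid response gene of germ cells, stood at 5.24 and 17.1 CPM, against 22.5 to 282 CPM with a median of 101 (-3.30 ± 0.78). Of 22 meiotic genes, 18 passed as lower, and *Spo11*, which makes meiotic breaks, had 4 and 0 UMIs.

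Pluripotency genes were low as well. Of 18 tested, 7 passed as lower and none as higher (median -3.26), where 8.35% of all genes were lower. *Pou5f1* had 7 and 0 UMIs, and *Nanog* stood at 1.84 and 1.82 CPM, against 0 to 24.8 CPM with a median of 0.708 in SSCs, and did not pass. *Zfp42* and *Dppa5a* were lower (-4.65 ± 0.63 and -4.47 ± 0.40). The RPG4 cells of the same libraries, a late cluster of reprogramming, held 204 and 146 CPM of *Nanog* and 216 and 198 CPM of *Otx2*.

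Single cells separated in the same way. The 12 leading genes summed to 494 to 3219 CPM in the 61 Neural 3 cells, and each of these cells lay above all 116 Neural 2 cells of the same libraries, whose highest value was 490.3 CPM. The 20 germ cell identity genes summed to 151 to 1690 CPM in Neural 3 cells, and 2 Neural 2 cells lay within this range. The 12 genes were chosen on these cells, so this separation follows from the choice.

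**Figure D4:**
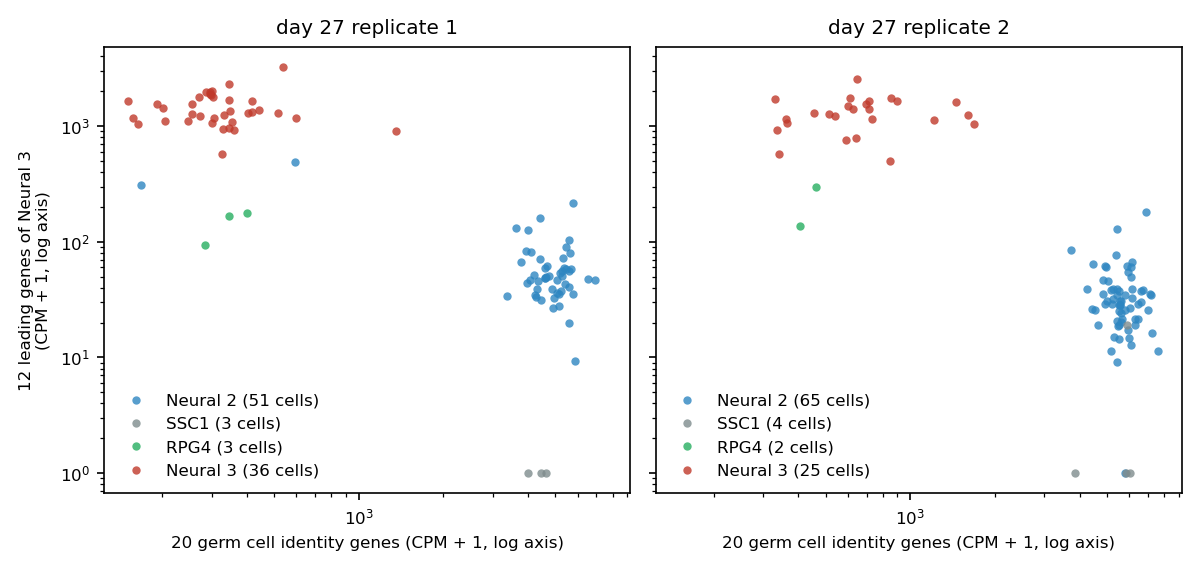
Each point is a cell of day 27 replicate 1 (left) or replicate 2 (right). The horizontal axis gives the summed level of 20 germ cell identity genes and the vertical axis that of the 12 leading genes of Neural 3, both as CPM + 1 on log axes. The 36 and 25 Neural 3 cells lie at the upper left, Neural 2 at the lower right apart from 2 cells, and the RPG4 cells below all Neural 3 cells in leading genes.

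Against Neural 2, the comparison within the same libraries, 936 of 14401 genes passed as higher in Neural 3 (6.5%) and 798 as lower (5.54%). With the library as a replicate block the counts were 1232 and 1345, and without replicate 1 or replicate 2 of Neural 3 the lower genes numbered 1235 and 1444. The genes that led by fold were *Gm5464*, *Spock3*, *Dcn*, *Angptl2*, *Mecom* and *Ssc5d* on the higher side. *Mecom*, a zinc finger regulator, stood at 81.5 CPM in replicate 1 and 73.6 CPM in replicate 2 in Neural 3 and 1.58 and 0.459 CPM in Neural 2 (6.45 ± 0.51). *Angptl2*, a secreted angiopoietin-like protein, stood at 22 and 14.6 CPM and 0.121 and 0.306 CPM (6.58 ± 0.99). *Spock3*, a matrix proteoglycan, rested on UMIs in 6 Neural 3 cells and *Gm5464* in 8, so these levels came from few cells. On the lower side led *Slxl1*, *Pxt1*, *Meg3*, *S100z*, *Oas1c* and *4933440M02Rik*, each with at most 5 UMIs in a Neural 3 library.

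The transcripts of each cluster were also found in the other, mostly at a low level. The 12 leading genes of Neural 3 stood in Neural 2 at 2.80% to 10.5% of their Neural 3 level in replicate 1 (median 4.65%) and at 0.599% to 5.92% in replicate 2 (median 2.80%). The 20 germ cell identity genes stood in Neural 3 at 2.87% to 18.9% of their Neural 2 level in replicate 1 (median 6.33%) and at 3.25% to 62.6% in replicate 2 (median 12.3%). Whether these are transcripts of the cells or RNA shared within a plate was not tested. The SSC1 cells of the same libraries held a median of 0 CPM of the 12 genes, at 7443 and 20999 UMIs per cell.

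Neural 1, the neural cluster of the other libraries, was set against Neural 3 across libraries and days. Here 950 of 14056 genes passed as higher in Neural 3 (6.76%) and 799 as lower (5.68%), and without replicate 1 or replicate 2 of Neural 3 the counts were 518 and 353 or 546 and 471. *Hoxd3*, *Scara3*, *Fah*, *Pknox2*, *St8sia2* and *Tnfrsf21* led the higher genes. *Hoxd3* had no UMI in the 8 Neural 1 libraries and was at least 636-fold higher in Neural 3, with a limit of 3 counts over the group, and *St8sia2*, a sialyltransferase of neural adhesion molecules, was at least 291-fold higher at 10.4 and 12.3 CPM. *Fah*, an enzyme of tyrosine breakdown, stood at 42.3 and 41.5 CPM, against 0 to 0.119 CPM with a median of 0 in Neural 1 (10.03 ± 1.04). *Pxt1*, *Klhl31*, *Lgals2*, *Gm13016*, *Gm26692* and *Ribc2* led the lower genes. *Pxt1*, a testis gene, had 2 and 0 UMIs in Neural 3 and stood at 22.9 to 58.4 CPM with a median of 33.9 in Neural 1.

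Of the markers of the neural branch, *Nr2f1* and *Foxp2* also differed between the clusters that share the name. *Nr2f1* stood at 153 and 139 CPM in Neural 3, 9.71 and 9.1 CPM in Neural 2 and 0 to 11.4 CPM with a median of 0 in Neural 1, with log2 fold changes of 4.18 ± 0.27 and 6.23 ± 0.96. *Foxp2* stood at 2.25 and 2.29 CPM in Neural 2 and 0 to 8.82 CPM with a median of 0.656 in Neural 1 (5.10 ± 0.42 and 5.11 ± 1.03). *Msx1* passed against neither, at 5.28 and 6.35 CPM in Neural 2 and 0 to 40.8 CPM in Neural 1. Neural 1 and Neural 2 held the germ cell identity genes at 5049 to 6032 CPM and at 4591 and 5625 CPM, within the SSC range of 4545 to 6211 CPM, and Neural 3 held 353 and 736 CPM. Neural 4 had 29 cells with no library of 5, so no comparison with it could be fitted. In the pooled Neural 4 cells *Nr2f1* had no UMI and *Msx1* stood at 153 CPM.

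The 3 comparisons share the Neural 3 libraries and are not independent. Passing in all 3 were 652 genes as higher and 524 as lower. Germ cell identity genes were lower in 19, 18 and 18 of 20 against SSCs, Neural 1 and Neural 2, beside 8.35%, 5.68% and 5.54% of all genes. Regulators of somites and sclerotome were higher in 21 of 30, 20 of 27 and 18 of 27 tested, beside 8.92%, 6.76% and 6.5% of all genes. That list was drawn after the values were seen.

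Genes of energy supply and stress were higher in part. Of 18 glycolytic enzymes, 7 passed as higher and none as lower (median 1.35), beside 8.92% and 8.35% over all genes, led by *Pgk1* at 240.4 and 166 CPM, against 0 to 19.5 CPM with a median of 6.54 in SSCs (4.97 ± 0.34). *Pfkl*, a subunit of phosphofructokinase, stood at 443 and 484 CPM (4.09 ± 0.39) and *Ldha*, of lactate formation, at 1389 and 1515 CPM (2.39 ± 0.20). Of 17 hypoxia genes, 8 were higher, led by *Ndufa4l2* at 227 and 168 CPM, against 0 to 3.38 CPM with a median of 0.487 (7.99 ± 0.56). Of 17 genes of the integrated stress response, 8 were higher and none lower, with *Atf5* at 80.5 and 56.3 CPM (5.13 ± 0.48), *Chac1*, a glutathione-degrading enzyme, at 142 and 55.6 CPM (5.05 ± 0.72) and *Nupr1* at 222 and 282 CPM (4.42 ± 0.48). The RPG4 cells of the same libraries held 139.8 and 177 CPM of *Ndufa4l2* and 331 and 535 CPM of *Pfkl*.

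Some proliferation genes were higher than in SSCs. Of 18 genes of G2 and mitosis, 5 passed as higher than in SSCs, 10 as higher than in Neural 1 and 2 as higher than in Neural 2 of the same libraries, and none as lower in these comparisons, beside 8.92%, 6.76% and 6.5% higher over all genes. *Mki67*, a marker of cycling cells, stood at 263 CPM in replicate 1 and 256 CPM in replicate 2, against 32.6 to 152 CPM with a median of 95.6 in SSCs (1.71 ± 0.28) and 2.08 to 38 CPM with a median of 8.14 in Neural 1 (4.60 ± 0.54). *Cdk1*, the mitotic kinase, stood at 374 and 549.7 CPM, against 108 to 293 CPM with a median of 193 (1.53 ± 0.20). Of 18 S phase genes 3 were higher (median -0.02), with sums of 3067 and 2342 CPM against 1739 to 3707 CPM in SSCs, led by *Gins2* and *Rrm2*, the latter at 350.2 and 348 CPM (1.95 ± 0.22). For p53 targets, 3 of 18 passed in each direction, and *Cdkn1a*, the cell cycle inhibitor, did not pass against SSCs at 176 and 124 CPM, against 35 to 739 CPM with a median of 129.

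Signalling genes were read by list, beside 8.92% higher and 8.35% lower over all genes. Of 15 targets of BMP and TGF-beta, 6 were higher and none lower, with *Id2* at 354 and 262 CPM, against 0 to 29 CPM with a median of 4.7 in SSCs (5.82 ± 0.51), and *Tgfbi*, a secreted matrix protein, at 396 and 367 CPM, against 0.542 to 27.7 CPM with a median of 6.12 (5.84 ± 0.36). Of 19 genes of the GDNF and FGF response, 5 were higher, with *Spry2*, *Spred1* and *Spred2*, feedback inhibitors of ERK signalling, among them, and 5 lower, with *Bcl6b* and *Pou3f1*, which GDNF induces in SSCs. *Spry2* stood at 75.7 and 42.6 CPM, against 1.64 to 31 CPM with a median of 13.2 (2.31 ± 0.42). Of 14 Wnt targets, *Lef1* (45.6 and 37.1 CPM, 2.61 ± 0.54) and *Dkk1* were higher and *Tcf7* lower (16 and 9.8 CPM, -2.42 ± 0.39), counts close to what the shares of all genes give for a list of this size. Of 14 retinoid genes, *Stra6*, the receptor for retinol transport (32.5 and 14.8 CPM, 7.98 ± 0.77), *Cyp26a1*, which degrades retinoic acid (25.4 and 33.5 CPM, 5.10 ± 0.86), and *Rarb* were higher and *Stra8* lower. *Tet1* and *Tet2*, which oxidise methylated DNA, were the higher ones of 9 DNA methylation genes, with *Tet1* at 94 and 103 CPM, against 0 to 23 CPM with a median of 8.86 (3.64 ± 0.47).

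**Figure D5:**
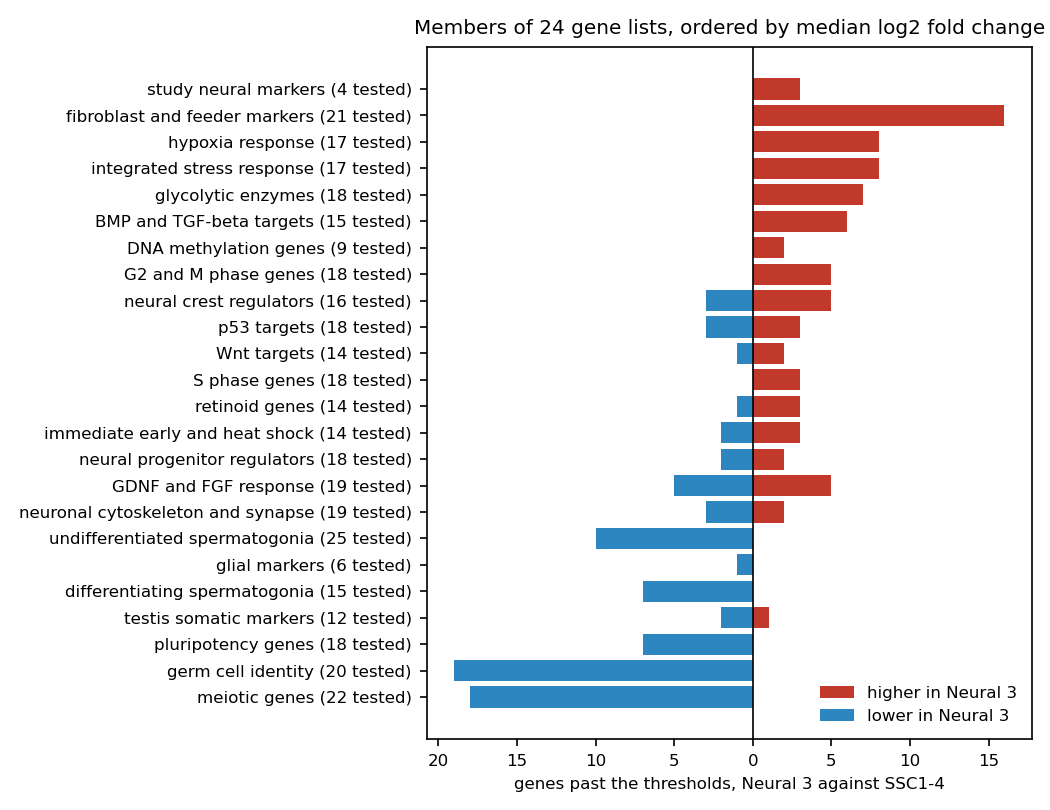
Number of members of 24 gene lists that passed as higher (to the right) or lower (to the left) in Neural 3 against SSC1 to SSC4 (horizontal axis, genes), ordered by the median log2 fold change of the members tested. Germ cell identity and meiotic genes stand at the lower end with 19 and 18 lower genes, and fibroblast and feeder markers near the upper end with 16 higher genes.

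Within the cluster, genes named above differed in how many cells held them. *Meox1*, *Sox9*, *Vcan* and *Col9a1* had a UMI in 61, 61, 61 and 61 of 61 cells, *Foxd1* in 58 and *Nr2f1* in 55. *Foxp2*, *Meox2* and *Pax9* had one in 47, 42 and 41 cells, *Uncx* in 28, and *Pax1* and *Tbx18* in 24 each. The coefficient of variation over cells was 0.529 for *Meox1*, 1.57 for *Pax9*, 2.44 for *Uncx* and 2.62 for *Pax1*. Between the 10th and the 90th percentile of cells, *Meox1* ran from 67.03 to 522 CPM and *Pax9* from 0 to 217 CPM.

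Depth differed between libraries, so each cell was also thinned to 25000 UMIs. After thinning, *Meox1* was found in 97.2% and 88% of Neural 3 cells of replicates 1 and 2 and in 26% and 15.9% of Neural 2 cells, *Nr2f1* in 75% and 64% against 12% and 6.35%, and *Foxp2* in 50% and 52% against 6% and 3.18%. *Dazl* was found in 69.4% and 100% of Neural 3 cells and in 100% of the Neural 2 cells. No Neural 3 cell was left out for depth, and 1 and 2 Neural 2 cells were. Most Neural 3 cells thus held a UMI of *Dazl* at equal depth too.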

How the data were processed

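Single-cell transcriptomes came from modified STRT-seq libraries of the original condition, 46 in all. The authors deposited the counts as raw UMIs for every gene in every cell, and the paper's methods name UMI-tools for barcodes and UMIs, STAR 2.7.2b for alignment to mm10 and featureCounts 2.0.0 for assignment to genes. The percent of mitochondrial UMIs and the cluster of each cell were deposited by the authors in a cell annotation made with Seurat. The counts of all 4464 cells summed to the deposited UMIs per cell. The libraries held 15975410 to 34609591 UMIs (median 25269340).

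Counts were summed per library and cluster with at least 5 cells, and CPM was computed from the sums. edgeR 4.0.16 (TMM, filterByExpr, glmQLFit, glmQLFTest) in R 4.3.3 was fitted with only the compared classes and no block, and the script was tested on simulated data. A gene passed at an adjusted p below 0.01 and an absolute log2 fold change of at least 1.4427 (a natural log of 1). The replicate is the library, and the pair of Neural 3 libraries carries 1 collection label and 1 date label.

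Neural 3 and Neural 2 of 1 replicate number come from the same library, and their deviations from the cluster means correlated at 0.271 over 8045 genes, so the fit with the library as a block stands beside the main one. Shares by day were tested by exact two-sided permutation. Intervals are exact binomial at 95%, and the limit at 0 is 3 counts. Thinning to 25000 UMIs used seed 1. Gene positions are those of GENCODE vM21 on GRCm38, which mm10 names, and 23546 of 24615 genes had 1 chromosome, with 97.5% of Neural 3 UMIs.

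Members, lists and tests were chosen with earlier results of these data known, and the lists of somite regulators, matrix, mesenchymal, imprinted, Hox and sex chromosome genes were added after the values were seen. Named are the study's markers, the 12 genes in each direction against SSCs and the 6 in each direction against Neural 1 and Neural 2 with the largest log2 fold change among passing genes without overlap at 10 CPM or more in the higher class, and up to 4 passing members of a list in each direction; other members are given as background or as contrast and were chosen after their values were seen. Alternatives were DESeq2 1.42.0, RLE factors, no filter, other minimum cell numbers, day 27 only, a replicate block and leaving out each Neural 3 or Neural 2 library, or, for the share, each library of day 27. Methylomes and the other conditions were not analysed here, and the values of 2 genes that are counted in the lists are not reported here.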

Additional observations from a re-analysis of the deposited data

Results flagged for a closer look

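For 8 of 27 sets of values examined in this way, the highest of the 8 Neural 1 libraries that served as a comparison stood apart from the other 7, and about 1 set in 20 does so by chance. It was not the same library throughout, since those of *Nr2f1* and *Msx1* differ. The highest value was 11.4 CPM for *Nr2f1*, 40.8 CPM for *Msx1*, 16.7 CPM for *Pou5f1*, 7.72 CPM for *Nanog*, 42.0 CPM for *Ribc2* and 31.3 CPM for *Gm26692*. For *Fah* and *Pknox2* the highest Neural 1 library held 0.119 and 0.198 CPM, a few UMIs each. Neural 3 lay above these libraries for *Nr2f1*, *Fah* and *Pknox2*, with 153 and 139 CPM, 42.3 and 41.5 CPM and 63 and 59.3 CPM, and within the Neural 1 range for *Msx1* and *Nanog*, with 5.79 and 0.228 CPM and 1.84 and 1.82 CPM. For *Msx1*, a single Neural 1 library at 40.8 CPM sets the upper end of a group whose median is 0.502 CPM.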

How the results depend on the processing

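Of 60 counts of passing genes under alternatives, 22 moved by over 1.5 times and 38 did not. Against SSCs, DESeq2 gave 2393 lower genes, the libraries of day 27 alone 735 higher and 595 lower, and leaving out a Neural 3 library 1040 to 1295 higher and 695 to 981 lower. A replicate block needs SSCs in the same libraries, of which there are 3 and 4 shallow cells, and was added after the data were seen: with sums of at least 3 cells it gave 105 higher and 41 lower genes, and the same sums without the block 314 and 181. In these settings *Bbc3*, a p53 target, turned from higher to -0.39 with the replicate block and -0.63 without it. Against Neural 1, DESeq2 gave 1477 lower genes, sums of at least 10 cells 1217, day 27 alone 1251, and leaving out a Neural 3 library 518 to 546 higher and 353 to 471 lower. Against Neural 2, the lower genes numbered 1437 with DESeq2, 1281 without a filter, 1345 with the replicate block and 585 to 1444 when any library was left out, while the higher genes, at 790 to 1317, stayed within 1.5 times. With an arm of 1 library, that library is assumed to vary like the others. The mean log2 ratio of the X chromosome's share of UMIs in Neural 3 went from 0.1024 to 0.0956 over SSCs and from 0.1037 to 0.1074 over Neural 1 without the 100 most abundant genes of Neural 3 and of SSCs. No paired analysis was possible against SSCs or Neural 1 at 5 cells because no library held both, and Neural 4 could not be fitted. Of 3200 values of named genes under these alternatives, 2825 kept their direction and side of the threshold, 346 no longer passed, 27 newly passed and 2 reversed; with the replicate block against SSCs, 16 held, 69 no longer passed and 1 reversed. The share of day 27 minus day 23 was 6.51 to 16.19 percentage points when a day 27 library was left out. Only 2 libraries hold the cluster, so the spread is mainly estimated from the other class and across genes, and 25 cells in replicate 2 limit the precision of genes found in few cells.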

Other observations

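The imprinted genes of Neural 3 differed from those of the few RPG4 cells of the same libraries, 3 and 2 cells. *Igf2* stood at 971 and 1292 CPM in Neural 3 and 210.0 and 322 CPM in RPG4, *Mest* at 436 and 545 CPM and 109.9 and 101 CPM, and *Airn* at 58 and 59.5 CPM and 2.78 and 0 CPM, whereas *Snrpn*, a splicing protein gene, stood at 199 and 181 CPM and 406 and 343 CPM. *Sox2*, chosen like *Igf2*, *Mest*, *Airn* and *Snrpn* after the values were seen, stood at 3.31 and 1.59 CPM in Neural 3 and 80.7 and 77 CPM in RPG4 and *Cdh1*, the epithelial cadherin, at 1.84 and 0.684 CPM and 146 and 70.7 CPM. With 3 and 2 RPG4 cells, these values have no test.

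Of 14 immediate early and heat shock genes, 3 passed as higher than in SSCs and 2 as lower, beside 8.92% and 8.35% of all genes. *Jun*, a subunit of AP-1, stood at 129 and 139 CPM, against 0.453 to 41.3 CPM with a median of 16.6 in SSCs (3.14 ± 0.41), and its partner *Fos* at 12.2 and 2.28 CPM, against 12.9 to 395 CPM with a median of 56.6 (-2.92 ± 0.81). In the pooled 29 Neural 4 cells *Jun* stood at 630.4 CPM and *Fos* at 432 CPM. *Hspa1a*, an inducible chaperone, stood at 1.29 and 4.56 CPM in Neural 3 and 214 CPM in Neural 4.

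The shares of UMIs by chromosome were set against SSCs. Over the 19 autosomes the log2 ratio to the mean share of the 36 SSC libraries lay between -0.16 and 0.20 in both libraries. Chromosomes 1, 5, 8 and 17 lay below every SSC library in both and chromosomes 6, 10 and 12 above, with chromosome 17 at 5.12% and 5.2% against 5.42% to 6.23%. Without the 100 most abundant genes this no longer held for chromosomes 1 and 6, and chromosome 19 lay below every SSC library too. Chromosome 10 had the highest ratio, with 5.67% and 5.74% of UMIs against 4.93% to 5.14% in SSCs and 4.97% to 5.04% in Neural 2, and stayed so at 5.64% and 5.77% without the 100 most abundant genes. The X chromosome held 3.17% in both, within the SSC range of 2.38% to 3.28%. The Y chromosome held 0.0216% and 0.0228%, near or below the lowest SSC library at 0.0224% (log2 ratios of -0.86 and -0.78), although *Ddx3y*, *Eif2s3y*, *Kdm5d* and *Uty*, the Y genes of most tissues, did not pass, with *Eif2s3y* at 118 and 134 CPM against 23.1 to 180.4 CPM with a median of 143 in SSCs. *Xist* had 2 and 0 UMIs. Expression shares were measured here, not DNA, and the copy number of chromosome 10 was not tested.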
